A study of Mus musculus with 9 samples.

Results

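The transcripts followed here come from 10 imprinted genes: Dlk1, Meg3, Cdkn1c, Peg3, Ndn, Snrpn, Grb10, Mest, Igf2 and H19. They were found by symbol in the deposited gene tables and joined by Ensembl identifier to the counts. All 10 had a row among the 47729 genes of the count tables, and 10 of 10 passed the filter on low counts, which kept 17988 genes. The cells were midbrain dopamine (DA) neurons of C57/Bl6 mouse embryos at E15.75, sorted for a yellow fluorescent protein. All embryos carried Pitx3-Cre/+ and the reporter Rosa-lox-stop-lox-Yfp. They differed in Dot1l, which encodes an enzyme that methylates a lysine in the core of a histone: 3 libraries were Dot1l(+/+), with 0 floxed alleles, 3 were Dot1l(fl/+), with 1, and 2 were labelled Dot1l(fl/fl), with 2. A further sample, Dot1l(fl/fl) 3, was not analysed here.

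Several features limit these groups as a model. Cre is made from the Pitx3 locus itself, so every embryo, controls included, had a single intact Pitx3 copy. Deletion happens only in cells that have switched Pitx3 on. Per the study's methods, every library pooled several embryos. The study's methods also say that embryos of all genotypes were taken from the same litter. No source used here ties a replicate number to those sets, and p-values therefore measure the spread between these pools.

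An imprinted gene is transcribed mainly from one parental copy, chosen by DNA methylation laid down in the germ line at an imprinting control region. Such genes sit in clusters in which genes of the maternal and the paternal copy answer to the same control region. Many act on growth and differentiation, and several are abundant in the developing brain. Dlk1 is a membrane protein related to the Notch ligands and is known as a target of the DA transcription factor Nr4a2. Cdkn1c, a cyclin-dependent kinase inhibitor, is known to act with Nr4a2 as DA neurons mature. Gene counts do not tell the parental copies apart, so the values below are totals over both.

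Library totals ranged from 13616922 to 43674673 counts, and the shallowest were the pair labelled Dot1l(fl/fl). Levels are given in CPM, counts scaled to the same normalised library size. The gene-level count of Dot1l was 105, 84.6 and 94.6 CPM in Dot1l(+/+) 1 to 3, 75.5, 65.6 and 76.2 CPM in Dot1l(fl/+) 1 to 3, and 64.9 and 99.1 CPM in the pair labelled Dot1l(fl/fl) 1 and 2. The library labelled Dot1l(fl/fl) 2 thus lay inside the Dot1l(+/+) range and went against its label, although the count covers the whole gene and the floxed part is a single exon. Values from the 7 libraries that remain without it, called the reduced set, stand beside the members and some of the list values. They also stand beside other named genes where they move by over 1.5 times or change a call. Those of the lists and other genes were added after seeing the data. The reduced set holds a single library labelled Dot1l(fl/fl), so its p-values take their spread from the other genotypes. The summed level of 10 DA markers was 5278 to 5833 CPM in Dot1l(+/+), 5003 to 5471 CPM in Dot1l(fl/+), and 4939.7 and 4302 CPM in the pair labelled Dot1l(fl/fl), with none of the markers at 0. In such bulk libraries, fewer cells of a type and less RNA per cell cannot be told apart. Summed over 10 genes, the response to tissue dissociation was 1022 to 1201 CPM in Dot1l(+/+), 998 to 1261 CPM in Dot1l(fl/+), and 1423 and 1460.3 CPM in the pair labelled Dot1l(fl/fl). The GABAergic sum over 6 markers also lay higher in the latter, at 235 to 264 CPM against 204 to 225 CPM in Dot1l(+/+) and 196 to 231 CPM in Dot1l(fl/+). Of these, Slc32a1, a vesicular GABA transporter, was at 156 and 129 CPM against 108 to 113 CPM, while 4 of the 6 markers had a log2 fold change below 0. The sum of oligodendrocyte precursors lay lower than in Dot1l(+/+), at 7.49 to 9.07 against 9.19 to 14.1 CPM. In Dot1l(fl/+) it ran from 5.17 to 14.0 CPM, across both. The part of these lists in the results below was not tested.

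Per kilobase of annotated exon, the 10 genes covered more than 3 orders of magnitude in Dot1l(+/+) neurons. Ndn, which encodes the MAGE protein Necdin of postmitotic neurons, stood highest at 212 ± 14.3 CPM per kb (SD, n = 3), rank 120 of 17925 genes. Dlk1 followed at 173 ± 3.53 and Meg3, a maternally expressed long noncoding RNA, at 164 ± 31.3 CPM per kb (SD, n = 3 each). Snrpn, whose product SmN is a spliceosomal protein of neurons, was at 109 ± 5.92, and Cdkn1c at 94.0 ± 9.45 CPM per kb. Within this order, Dlk1 and Meg3 overlapped in range (169 to 175 and 131 to 193 CPM per kb), as did Snrpn and Cdkn1c (103 to 115 and 85.1 to 104 CPM per kb).

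A middle group held Peg3, a zinc-finger protein of the paternal copy, at 33.1 ± 3.45 CPM per kb. Grb10, an adaptor that binds the insulin and IGF1 receptors, was at 12.2 ± 0.616, and Mest, a hydrolase-like protein of the paternal copy, at 9.91 ± 2.84 CPM per kb. H19, a maternally expressed noncoding RNA, was at 2.37 ± 0.592 and Igf2, the growth factor beside it, at 0.147 ± 0.045 CPM per kb, rank 16252 of 17925. The ranges of adjacent genes in this part of the order did not overlap. Igf2 rested on 322 counts over all 8 libraries and H19 on 1660, against 209732 for Dlk1. These lengths join all annotated exons, so a gene with many unused exons is placed too low.

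**Figure D1:**
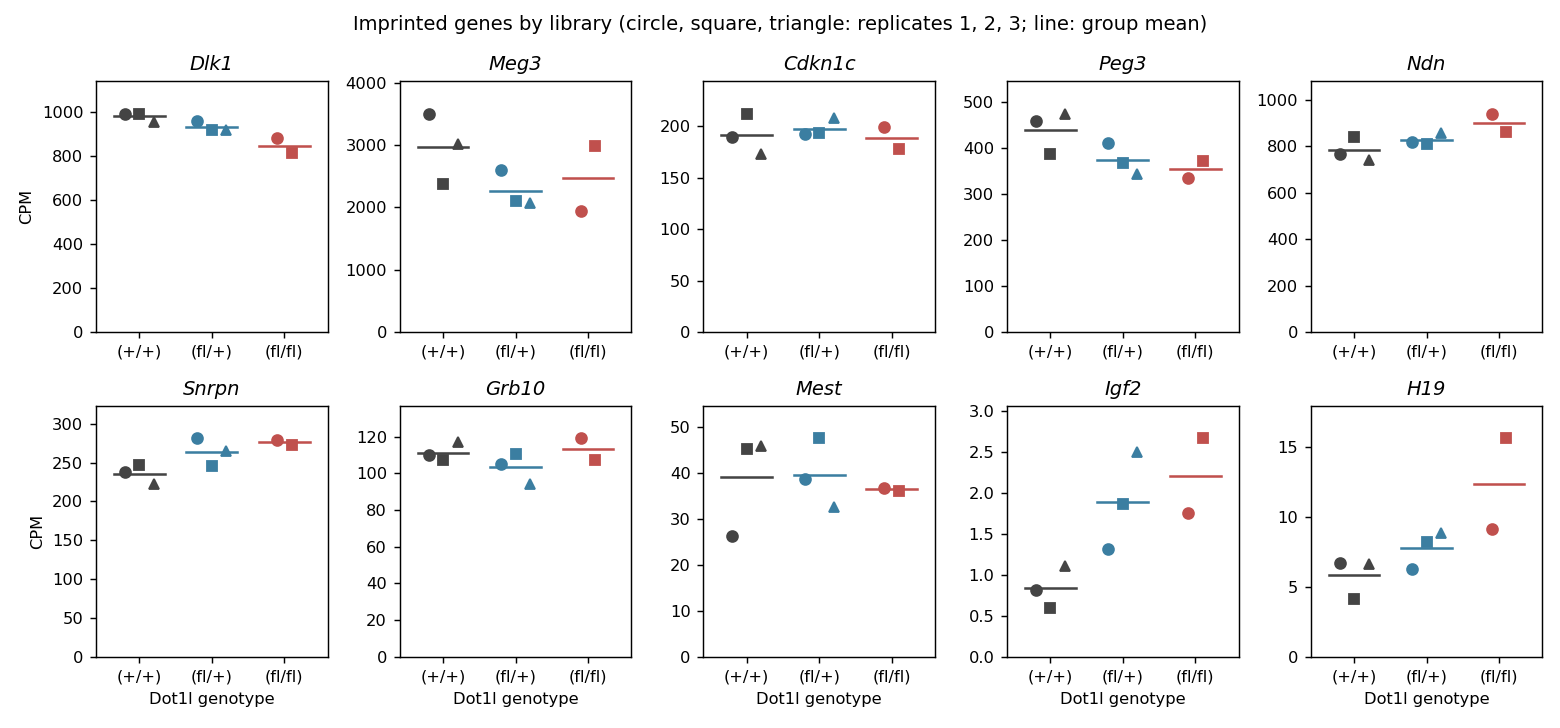
Level of each gene (CPM, vertical axes from 0) in every library, by Dot1l genotype; circles, squares and triangles are replicates 1, 2 and 3 and lines are group means. In Dlk1 the pair labelled Dot1l(fl/fl), at 879.7 and 811 CPM, lie below all others. In H19 the library labelled Dot1l(fl/fl) 2, at 15.6 CPM, stands above the rest.

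Dot1l(fl/fl) was set against Dot1l(+/+) to ask what differs once both alleles are floxed. No imprinted gene of the 10 was past the adjusted threshold: 0 were called, as were 0 (0.0%) of all 17988 genes by edgeR. At an unadjusted p under 0.05 stood 5 of the 10, with H19, Ndn and Snrpn higher and Peg3 and Dlk1 lower, where 1667 genes in all (9.27%) did so, 4.24% higher and 5.03% lower. DESeq2, which left H19 and Igf2 without an adjusted p, called 0 of the other 8 and 197 genes in all. The groups did not overlap for 6 of the 10, 4 higher and 2 lower, beside 23.7% of all genes, 12.1% higher and 11.6% lower. Of the 10, 5 lay above all controls and 3 below in the reduced set, beside 28.6% and 27.0% of all genes. The median log2 difference of the 10 was 0.00, with 5 above and 5 below 0, and that of all genes was -0.003. So as a list these genes had no common direction.

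Counts at the unadjusted threshold moved with the settings. With a correction for exon length and GC content, 2 of the 10 remained below 0.05 (Peg3 and H19), beside 6.72% of all genes. With the library labelled Dot1l(fl/fl) 2 left out there were 4, namely Meg3, Peg3, Ndn and Snrpn, beside 11.1% of all genes. With the library labelled Dot1l(fl/fl) 1 left out there were 2, Dlk1 and H19, beside 6.88%. Left out in turn, Dot1l(+/+) 1 and Dot1l(+/+) 3 gave 3 each, Dlk1, Peg3 and H19, beside 6.71% and 5.85% of all genes. A fit of both genotypes alone gave those same 3, beside 7.74%. The count went up to 6 without Dot1l(+/+) 2 and with no filter on low counts, where Meg3 joined the 5, beside 13.5% and 8.02% of all genes. It was also 6 with DESeq2, where Igf2 joined them, beside 3.78%.

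Dot1l(fl/+) against Dot1l(+/+) asks whether the loss of 1 allele is enough. Of the 10 genes 0 were called, beside 0.0% of all genes, and by DESeq2 again 0. Meg3 and Peg3, both lower, had an unadjusted p under 0.05, beside 5.02% of all genes (2.16% higher, 2.86% lower). Igf2 alone had groups that did not overlap, with the Dot1l(fl/+) libraries higher, as did 11.5% of genes (5.56% higher, 5.97% lower). Between Dot1l(fl/fl) and Dot1l(fl/+), 0 of the 10 were called (0.0% of all genes; DESeq2 called 1 gene, none of the 10), and H19 alone, higher, had an unadjusted p under 0.05, beside 4.02% of genes (1.86% higher, 2.16% lower). None of the 10 (0) did in the reduced set, beside 5.71%. In that comparison 3 of the 10 did not overlap, 2 higher and 1 lower, where 19.8% of genes did not (10.2% higher, 9.57% lower). For a trend over 0, 1 and 2 floxed alleles, edgeR called 0 (0.0% of all genes), and 6 of the 10 had an unadjusted p under 0.05, beside 10.1% of genes (4.48% higher, 5.61% lower): Dlk1, Meg3 and Peg3 with a negative slope and Ndn, Snrpn and H19 with a positive one. With the correction for length and GC content, 2 of these 6 remained, Peg3 and H19. The reduced set held 4, Meg3, Peg3, Ndn and Snrpn, beside 12.2% of genes. DESeq2, again without an adjusted p for H19 and Igf2, called 1 of the other 8 for the trend, Peg3, and 261 genes in all. The comparisons share libraries and are not independent.

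**Figure D2:**
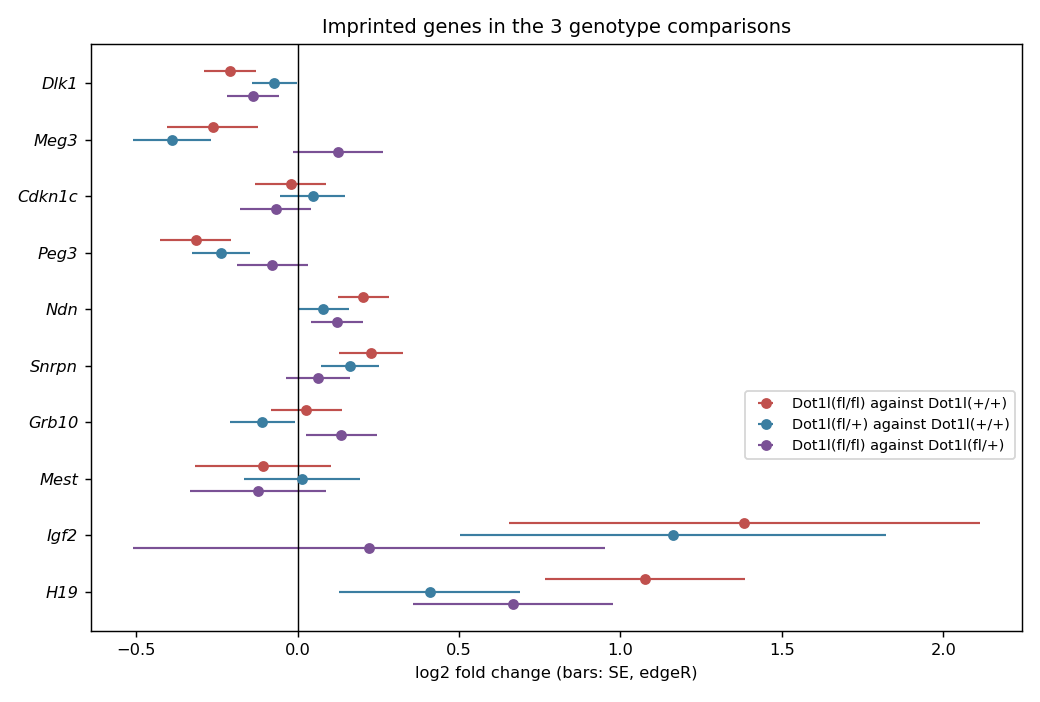
Log2 fold change (horizontal axis; points, with bars for the edgeR SE) of the 10 genes in the 3 pairwise comparisons. Meg3 and Peg3 lie left of 0 against Dot1l(+/+) in both genotypes, at -0.26 and -0.39 for Meg3 and -0.32 and -0.24 for Peg3, and the bars of Igf2 are the widest, at 0.73 in Dot1l(fl/fl).

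Start-site sequence is shown for Dlk1, Meg3 and Peg3, the members with a negative slope over alleles at an unadjusted p under 0.05, chosen with their values in view. Each line holds the 250 bases before the start of the RefSeq entry on GRCm38.p6, read 5′ to 3′ on the gene's strand. The windows are chr12:109452573-109452822 (plus strand) for Dlk1, chr12:109540746-109540995 (plus strand) for Meg3 and chr7:6730420-6730669 (minus strand) for Peg3. Capitals mark matches on either strand to the cyclic AMP response element TGACGTCA and to TGCCGC, the core bound by the imprint-protecting factor Zfp57 when methylated; both were chosen with the sequences in view.
Dlk1: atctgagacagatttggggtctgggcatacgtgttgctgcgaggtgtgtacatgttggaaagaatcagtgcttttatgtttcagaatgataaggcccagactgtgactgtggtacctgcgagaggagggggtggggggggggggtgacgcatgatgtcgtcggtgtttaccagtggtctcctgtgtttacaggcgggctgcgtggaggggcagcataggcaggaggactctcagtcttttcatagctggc
Meg3: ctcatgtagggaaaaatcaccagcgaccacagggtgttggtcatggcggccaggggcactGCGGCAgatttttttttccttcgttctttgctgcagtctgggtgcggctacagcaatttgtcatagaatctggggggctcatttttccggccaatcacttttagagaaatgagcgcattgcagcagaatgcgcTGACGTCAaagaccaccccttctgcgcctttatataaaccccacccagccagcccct
Peg3: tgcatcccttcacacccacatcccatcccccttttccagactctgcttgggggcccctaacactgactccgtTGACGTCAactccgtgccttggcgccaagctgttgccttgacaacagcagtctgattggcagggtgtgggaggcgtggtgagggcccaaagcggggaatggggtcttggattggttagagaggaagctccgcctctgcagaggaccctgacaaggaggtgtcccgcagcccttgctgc
TGACGTCA was found once each before Meg3 and Peg3, and in 1.55% of 32851 windows of this kind over all genes. TGCCGC was found once before Meg3, on the opposite strand, and in 8.68% of all windows. Neither motif was in the Dlk1 window, which says only that these letters are not in these bases. The windows held 8, 10 and 8 CpG pairs in the order printed, against a median of 6 over all windows. Of the Peg3 window, 92 bases lie inside Usp29, the neighbouring imprinted gene that starts in the opposite direction. A match of letters is a description and not a measured site.

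Dlk1 (ENSMUSG00000040856, chromosome 12, 109452823 to 109463336, GRCm38) was at 989, 990.3 and 955 CPM in Dot1l(+/+) 1 to 3. With 1 floxed allele the levels were 956, 917 and 918 CPM. The pair labelled Dot1l(fl/fl) 1 and 2 had 879.7 and 811 CPM, below every other library. Both Dlk1 replicates of that label were thus the lowest, and Dot1l(fl/+) overlapped Dot1l(+/+) by 1 library. The log2 fold change in Dot1l(fl/fl) against Dot1l(+/+) was -0.21 ± 0.08 (SE), a ratio of 0.864, with an edgeR adjusted p of 0.364 (unadjusted 0.0134). With the library labelled Dot1l(fl/fl) 2 left out it came to -0.15, at an edgeR unadjusted p of 0.0927, and -0.27 without the other. Against Dot1l(+/+), Dot1l(fl/+) differed by -0.07 ± 0.07 (edgeR adjusted p = 0.995). The DA marker sum was lowest in the same 2 libraries; its part in the Dlk1 values was not tested.

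Meg3 (ENSMUSG00000021268, chromosome 12, 109541001 to 109571726) starts 77.7 kb downstream of Dlk1 in the same imprinted domain and is transcribed from the other parental copy. Its level was 3499, 2369 and 3016 CPM in Dot1l(+/+), 2606, 2102 and 2075 CPM in Dot1l(fl/+), and 1949 and 2985 CPM in the pair labelled Dot1l(fl/fl) 1 and 2. Here the spread within a genotype was wide, and all groups overlapped. In Dot1l(fl/+) the log2 fold change was -0.39 ± 0.12 (SE), with an edgeR adjusted p of 0.94 (unadjusted 0.00381). Leaving out Dot1l(+/+) 1 gave -0.25 (edgeR unadjusted p = 0.0549) and leaving out Dot1l(+/+) 2 gave -0.53. With no filter on low counts it passed the threshold (edgeR adjusted p = 0.0045). In Dot1l(fl/fl) it was -0.26 ± 0.14, with an edgeR adjusted p of 0.574 (unadjusted 0.0655). One library decided the latter: it was -0.60 without the one labelled Dot1l(fl/fl) 2 and 0.011 without the one labelled Dot1l(fl/fl) 1. A single library of that label was left in either fit. Without Dot1l(+/+) 1 the Dot1l(fl/fl) value was -0.13 and without Dot1l(+/+) 2 it was -0.40. The length and GC correction gave -0.13.

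Of the other transcripts of the Dlk1-Dio3 domain, Rtl1, a retrotransposon-derived gene of the paternal copy, was at 12.5 to 18.1 CPM in Dot1l(+/+) and at 14.4 and 6.62 CPM in the pair labelled Dot1l(fl/fl), a log2 fold change of -0.51 ± 0.29 (edgeR adjusted p = 0.624), or -0.06 in the reduced set. Rian and Mirg, noncoding RNAs that continue from the Meg3 region on the maternal copy, differed by -0.12 ± 0.10 and -0.37 ± 0.21. In both, the pair labelled Dot1l(fl/fl) lay below every Dot1l(+/+) library, with edgeR adjusted p-values of 0.78 and 0.602. Dio3, a thyroid hormone deiodinase, differed by 0.35 ± 0.47. In Dot1l(fl/+) against Dot1l(+/+), Rian was at 0.05 ± 0.09 and Mirg at 0.11 ± 0.18. The 3 maternal transcripts of the domain thus lay on both sides of 0 in that comparison, and the difference between them was not tested.

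Peg3 (ENSMUSG00000002265, chromosome 7, 6703892 to 6730431) was at 459, 388 and 475 CPM in Dot1l(+/+). It was at 412, 367 and 343 CPM in Dot1l(fl/+) and at 336 and 372 CPM in the pair labelled Dot1l(fl/fl). The latter lay below all Dot1l(+/+) libraries, and the Dot1l(fl/+) range reached above the lowest of them. Log2 fold changes were -0.32 ± 0.11 (SE) in Dot1l(fl/fl) and -0.24 ± 0.09 in Dot1l(fl/+), with edgeR adjusted p-values of 0.311 and 0.94 (unadjusted 0.00658 and 0.0185). With the length and GC correction the Dot1l(fl/fl) value was -0.21. With the library labelled Dot1l(fl/fl) 2 left out it was -0.39 and without the one labelled Dot1l(fl/fl) 1 it was -0.24. The slope was -0.16 ± 0.05 per allele (edgeR adjusted p = 0.217), and without Dot1l(+/+) 2, the control with the lowest Peg3 level, it passed the threshold (edgeR adjusted p = 0.0463). Usp29, which shares the Peg3 start region and the paternal copy, was at 139 to 156 CPM in all libraries and differed by -0.03 ± 0.11 in Dot1l(fl/fl). Zim1, of the maternal copy, differed by -0.14 ± 0.21.

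Ndn (ENSMUSG00000033585, chromosome 7, 62346569 to 62350262) was at 767, 841 and 739 CPM in Dot1l(+/+) and at 817, 808 and 855 CPM in Dot1l(fl/+). The pair labelled Dot1l(fl/fl) 1 and 2 had 939.7 and 861 CPM, above all other libraries. The log2 fold change in Dot1l(fl/fl) was 0.20 ± 0.08 (SE), with an edgeR adjusted p of 0.443 (unadjusted 0.0229). It was 0.26 with the library labelled Dot1l(fl/fl) 2 left out. With the correction for length and GC content it was 0.13.

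Snrpn (ENSMUSG00000102252, chromosome 7, 59982495 to 60140219) was at 238, 247 and 222 CPM in Dot1l(+/+), 281, 246 and 265 CPM in Dot1l(fl/+), and 279 and 273 CPM in the pair labelled Dot1l(fl/fl). Every library of the last group was above every control. The log2 fold change was 0.23 ± 0.10 (SE), with an edgeR adjusted p of 0.477 (unadjusted 0.0323), 0.24 with the library labelled Dot1l(fl/fl) 2 left out and 0.10 with the length and GC correction. Snrpn shares 589 bases of exon with Gm38393 and 216 with Snurf, on its own strand. How reads there were divided is not given in the sources used here, and Snurf had 0 counts in all libraries. Other paternal genes beside Ndn, namely Magel2, Mkrn3 and Peg12, differed by 0.08 ± 0.16, -0.08 and 0.14, and the maternal Ube3a, a ubiquitin ligase, by -0.20 ± 0.13. Magel2 was at -0.29, Mkrn3 at -0.28, Peg12 at 0.34 and Ube3a at -0.33 in the reduced set. Thus Ndn and Snrpn lay above 0, and their neighbours on both sides of it.

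H19 (ENSMUSG00000000031, chromosome 7, 142575529 to 142578143) was at 6.72, 4.16 and 6.64 CPM in Dot1l(+/+), 6.25, 8.19 and 8.82 CPM in Dot1l(fl/+), and 9.13 and 15.6 CPM in the pair labelled Dot1l(fl/fl) 1 and 2. Counts behind these values were 146 to 287 per library. The pair labelled Dot1l(fl/fl) were the highest, 1 of them far above the other. The log2 fold change in Dot1l(fl/fl) was 1.08 ± 0.31 (SE), a ratio of 2.11, with an edgeR adjusted p of 0.261 (unadjusted 0.00209). This was the smallest unadjusted p among the 10. With the library labelled Dot1l(fl/fl) 2 left out the value was 0.64, with an edgeR adjusted p of 0.61 (unadjusted 0.116). With the library labelled Dot1l(fl/fl) 1 left out it was 1.41. Against Dot1l(fl/+) the difference was 0.67 ± 0.31 (edgeR adjusted p = 0.998, unadjusted 0.0431). This difference was 0.24 in the reduced set, and 1.0 with the other library of that label left out.

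Igf2 (ENSMUSG00000048583, chromosome 7, 142650766 to 142666816), 72.6 kb from H19 and read from the paternal copy, was at 0.811, 0.598 and 1.11 CPM in Dot1l(+/+). In Dot1l(fl/+) it was at 1.31, 1.86 and 2.50 CPM and in the pair labelled Dot1l(fl/fl) at 1.75 and 2.66 CPM. All libraries with a floxed allele were above all controls, on 21 to 71 counts each. Log2 fold changes were 1.38 ± 0.73 (SE) in Dot1l(fl/fl) and 1.16 ± 0.66 in Dot1l(fl/+), with edgeR adjusted p-values of 0.579 and 0.94 (unadjusted 0.0705 and 0.093). The Dot1l(fl/fl) value was 1.05 in the reduced set (edgeR unadjusted p = 0.285). A difference of this size was not past the test at this depth. Embryonic mesoderm, vessels and connective tissue included, is known to express Igf2 and H19. The summed level of 8 erythroid markers was 11.9 to 18.7 CPM in 7 libraries. It was 40.5 CPM in the library labelled Dot1l(fl/fl) 2, the one with most H19 and most Igf2. Of these markers 3 were under 1 CPM throughout. In the library labelled Dot1l(fl/fl) 1, also above all controls in both genes, the erythroid sum was 17.0 CPM. The endothelial sum over 8 markers was 6.75 to 11.5 CPM in Dot1l(+/+) and 4.4 to 17.9 CPM in Dot1l(fl/+). Its highest value was in the Dot1l(fl/+) library with most Igf2. In the pair labelled Dot1l(fl/fl) 1 and 2 it was 12.6 and 10.7 CPM, so lower in the one with most Igf2. Over 10 pericyte and fibroblast markers, 6 of them under 1 CPM throughout, the sum was 2.24 to 7.94 CPM in Dot1l(+/+). It was 4.46 to 8.22 CPM in Dot1l(fl/+), and 5.36 and 4.54 CPM in the pair labelled Dot1l(fl/fl) 1 and 2. The part of these cell types in the H19 and Igf2 values was not tested.

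**Figure D3:**
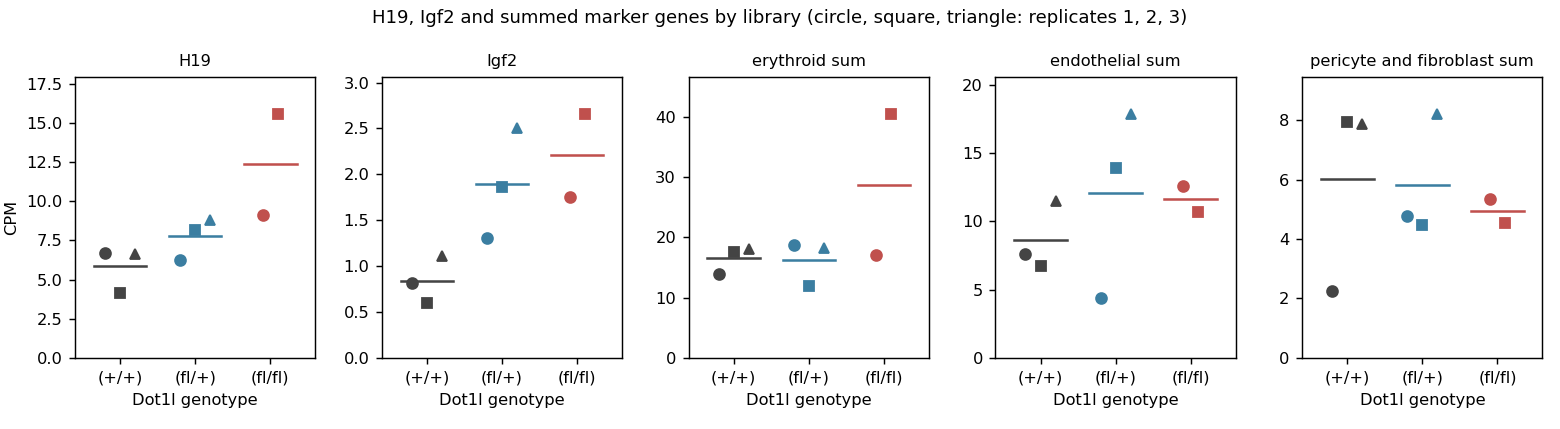
Level of H19 and Igf2 and the summed level of 3 marker lists (CPM, vertical axes from 0) in each library by Dot1l genotype, with lines at group means. The erythroid sum of the library labelled Dot1l(fl/fl) 2 stands at 40.5 CPM, above the 11.9 to 18.7 CPM of the others. The same library has the highest H19, at 15.6 CPM. The library labelled Dot1l(fl/fl) 1 has an erythroid sum of 17.0 CPM and H19 at 9.13 CPM, also above the controls.

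Cdkn1c (ENSMUSG00000037664, chromosome 7, 143458339 to 143461050) was at 189.6, 212 and 173 CPM in Dot1l(+/+), 192, 193 and 208 CPM in Dot1l(fl/+), and 199 and 178 CPM in the pair labelled Dot1l(fl/fl). All groups overlapped, with log2 fold changes of -0.02 ± 0.11 (SE) in Dot1l(fl/fl) and 0.05 ± 0.10 in Dot1l(fl/+), with edgeR adjusted p-values of 0.986 and 0.997. Of its domain, Kcnq1ot1, the paternal noncoding RNA of the control region, differed by -0.10 in Dot1l(fl/fl). Cd81, Tssc4, Nap1l4 and Osbpl5, maternal or weakly imprinted genes further out, lay between -0.09 and 0.12. In the reduced set Cdkn1c was at 0.055, Kcnq1ot1 at -0.81, Cd81 at 0.22, Tssc4 at 0.20 and Nap1l4 at 0.18, with edgeR adjusted p-values of 0.477 or more.

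Grb10 (ENSMUSG00000020176, chromosome 11, 11930508 to 12038683), known to be read from the paternal copy in neurons, was at 109.7, 107 and 117 CPM in Dot1l(+/+), 105, 110.3 and 94.3 CPM in Dot1l(fl/+), and 119 and 107 CPM in the pair labelled Dot1l(fl/fl). Its log2 fold change in Dot1l(fl/fl) was 0.03 ± 0.11 (SE; edgeR adjusted p = 0.985), and 0.10 in the reduced set; the groups overlapped. Ddc, which encodes the last enzyme of dopamine synthesis, lies 32.4 kb away. It was at 1165, 1109.7 and 1070.4 CPM in Dot1l(+/+), 1080, 1236 and 1081 CPM in Dot1l(fl/+), and 1004 and 838 CPM in the pair labelled Dot1l(fl/fl), a log2 fold change of -0.28 ± 0.09 (edgeR adjusted p = 0.289, unadjusted 0.00491). The Ddc value was -0.15 in the reduced set. The neighbours thus gave different values, which were not tested against each other.

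Mest (ENSMUSG00000051855, chromosome 6, 30723547 to 30748465) was at 26.2, 45.3 and 45.8 CPM in Dot1l(+/+), 38.7, 47.5 and 32.6 CPM in Dot1l(fl/+), and 36.7 and 36.1 CPM in the pair labelled Dot1l(fl/fl). The groups overlapped, with the widest range among the controls. The log2 fold change in Dot1l(fl/fl) was -0.11 ± 0.21 (SE), with an edgeR adjusted p of 0.953, and -0.10 in the reduced set. Mest shares 912 bases of exon with Copg2 on the opposite strand. The library kit keeps strand, but the strand setting of the counting is not given in the sources used here, so Mest and Copg2 reads may be mixed there. Copg2 itself differed by -0.08 ± 0.13, or by -0.00 in the reduced set.

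**Figure D4:**
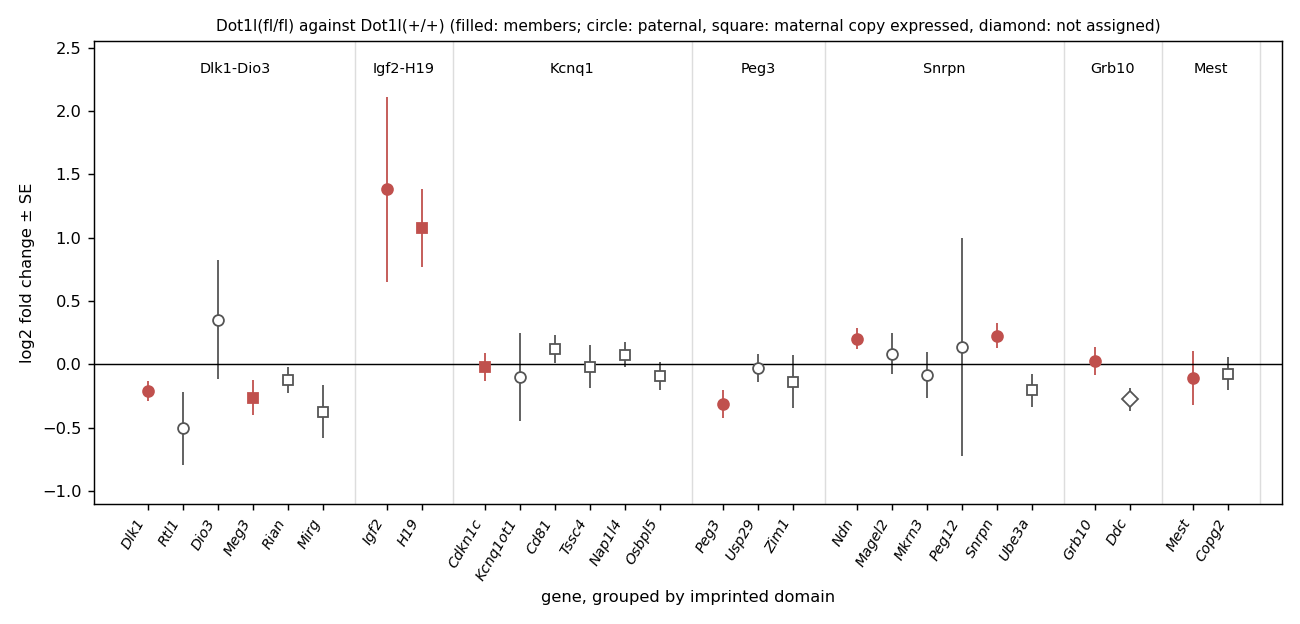
Log2 fold change in Dot1l(fl/fl) against Dot1l(+/+) (vertical axis; bars, edgeR SE) for the members (filled) and those tested neighbours with at least 300 counts over all libraries (open), grouped by imprinted domain; circles mark genes read from the paternal and squares from the maternal copy. H19 and Igf2, from opposite copies, both lie above 0, at 1.08 and 1.38, and Dlk1 and Meg3, also from opposite copies, both lie below it, at -0.21 and -0.26.

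By parental copy, the 6 members read from the paternal copy (Grb10 aside) had a median log2 fold change of 0.05 in Dot1l(fl/fl), with 3 higher and 3 lower. The 3 read from the maternal copy, Meg3, H19 and Cdkn1c, had a median of -0.02, with 1 higher and 2 lower. Neither copy went one way.

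**Figure D5:**
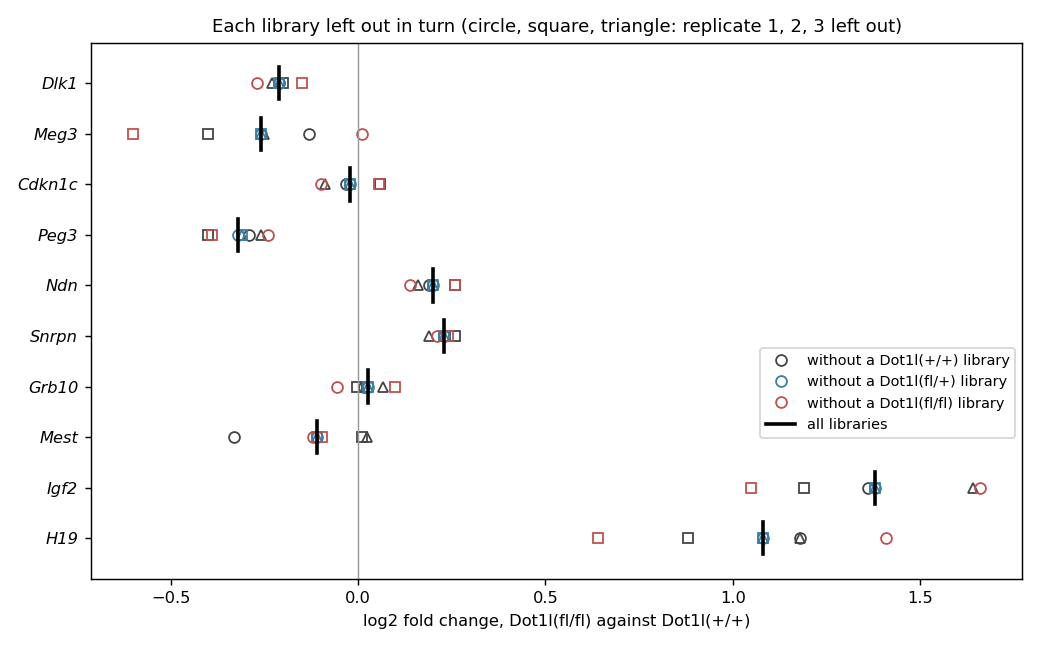
Log2 fold change in Dot1l(fl/fl) against Dot1l(+/+) for the 10 genes with each library left out in turn (open symbols, coloured by the genotype of the library left out) beside the value with all libraries (black bar). Meg3 runs from -0.60 to 0.011 and H19 from 0.64 to 1.41, both set by which of the libraries labelled Dot1l(fl/fl) is left out, whereas Snrpn stays between 0.19 and 0.26.

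The genes whose log2 CPM ran most like that of Dlk1 over the 8 libraries were Nptxr (Pearson's r = 0.985), Pak6 (0.954), Pcdhb22 (0.952), Arf3 (0.95) and Nyap1 (0.946), out of 13218 genes with a mean count of at least 50. Over those genes the median r was 0.01 and 41 had an r over 0.9. Nptxr, a receptor for neuronal pentraxins, was at 223, 221 and 212 CPM in Dot1l(+/+) and at 194 and 170.1 CPM in the pair labelled Dot1l(fl/fl), and its log2 fold change was -0.26 ± 0.10 (edgeR adjusted p = 0.398), or -0.17 in the reduced set. Pak6, a kinase of the PAK family, had the lowest p of the 5, with a log2 fold change of -0.52 ± 0.11 and an edgeR adjusted p of 0.147. These coefficients describe 8 libraries that share genotype and depth differences, and they were picked as the highest of all genes compared.

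Between the members, r was highest for Igf2 with H19 (0.878), Meg3 with Peg3 (0.841) and Ndn with Snrpn (0.809). It was lowest for Dlk1 with H19 (-0.933), Peg3 with Ndn (-0.896) and Dlk1 with Igf2 (-0.839). Dlk1 with Meg3, of the same domain, gave 0.185. They too describe 8 libraries that differ in genotype and depth.

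Of 56 other imprinted genes listed, 54 were found and 48 tested. In Dot1l(fl/fl) against Dot1l(+/+), 22 were higher and 26 lower, with a median log2 fold change of -0.04; edgeR called 0, and 8 (16.7%) had an unadjusted p under 0.05, 3 higher and 5 lower, where 9.27% of all genes did. The median was -0.02 in the reduced set. Kcnk9, a potassium leak channel read from the maternal copy in brain, was at 109, 93.9 and 137 CPM in Dot1l(+/+) and at 61.7 and 92.2 CPM in the pair labelled Dot1l(fl/fl). Its log2 fold change was -0.56 ± 0.16, with an edgeR adjusted p of 0.248. In the reduced set, with a single library labelled Dot1l(fl/fl), the Kcnk9 value was -0.88. Plagl1, a zinc-finger factor known to regulate other imprinted genes, was at 18.1, 20.8 and 22.4 CPM in Dot1l(+/+), 17.7, 10.9 and 12.7 CPM in Dot1l(fl/+), and 11.5 and 14.3 CPM in the pair labelled Dot1l(fl/fl). It was below all controls in every library with a floxed allele, with log2 fold changes of -0.67 ± 0.24 and -0.57 ± 0.21 and edgeR adjusted p-values of 0.341 and 0.94 in Dot1l(fl/fl) and Dot1l(fl/+). Ddc, given above, was the third gene by p. It is also one of the 10 DA markers, and no expressed copy was assigned to it here. Whether the listed genes are imprinted in these cells was not tested. In Dot1l(fl/+), 24 of the list were higher and 24 lower, with 0 called. An unadjusted p under 0.05 was found for 5 (10.4%), where 5.02% of all genes had one.

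A list of 18 genes that set, keep or remove DNA methylation or bind and silence imprinted regions, in the germ line, the early embryo or somatic cells, held 15 that were tested. In Dot1l(fl/fl), 12 of the 15 had a log2 fold change below 0, with a median of -0.20. At an unadjusted p under 0.05 stood 5 (33.3%), all lower, where 9.27% of all genes did so, 5.03% lower. By edgeR 0 were called. The median was -0.32 in the reduced set. Zfp445, a zinc-finger factor of imprint maintenance, was at 115, 101 and 124 CPM in Dot1l(+/+), 105, 93.7 and 74.1 CPM in Dot1l(fl/+), and 72.6 and 86.0 CPM in the pair labelled Dot1l(fl/fl), a log2 fold change of -0.51 ± 0.14 (edgeR adjusted p = 0.248). Tet3, which oxidises methylcytosine, a step in its removal, differed by -0.44 ± 0.14, and by -0.70 in the reduced set. Smchd1, a chromatin protein of the inactive X and of imprinted clusters, differed by -0.38 ± 0.14, and by -0.58 there.

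The pathway of Igf2 and Grb10 was followed in 23 insulin and IGF genes, all tested. In Dot1l(fl/fl), 8 were higher and 15 lower, with a median of -0.11, or -0.17 in the reduced set. At an unadjusted p under 0.05 stood 7 (30.4%), all lower, where 9.27% of all genes did so, 5.03% lower. By edgeR 0 were called. The groups did not overlap for 4 on the higher and 5 on the lower side, beside 12.1% and 11.6% of all genes. Igfbp5, an IGF-binding protein, was at 569, 505 and 581 CPM in Dot1l(+/+) and at 458 and 411 CPM in the pair labelled Dot1l(fl/fl), with a log2 fold change of -0.34 ± 0.10 (edgeR adjusted p = 0.248). The receptors Insr and Igf1r differed by -0.42 ± 0.14 and -0.39 ± 0.13, the latter by -0.60 in the reduced set. For each of these 3 the pair labelled Dot1l(fl/fl) lay below all controls.

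Among 23 Delta and Notch genes, the relatives and partners of Dlk1, edgeR called 0 and none had an unadjusted p under 0.05; 6 were higher and 17 lower, with a median of -0.09. The smallest p were those of the ligands Jag2 (-0.24 ± 0.13), Dll4 (-1.34 ± 0.87) and Jag1 (-0.55 ± 0.37), and Dll4 was at 2.76 CPM or less in all libraries. In the reduced set the median of these genes was -0.31, beside -0.02 over all genes, and Dll4 was at -2.19. Of 15 cell cycle genes around Cdkn1c, 3 (20.0%) had an unadjusted p under 0.05, where 9.27% of all genes did, and 0 were called. They were Cdkn1a, the inhibitor p21 (0.42 ± 0.16), Ccnd3, a D-type cyclin (0.62 ± 0.26), and Cdk6, its kinase partner (-0.89 ± 0.41). In the reduced set Cdkn1a was at 0.60, Ccnd3 at 0.76 and Cdk6 at -1.06. Of 7 MAGE genes, relatives of Ndn, 5 were higher and 2 lower, and 0 were called. Magee1 (-0.24 ± 0.10) alone (14.3%) had an unadjusted p under 0.05, beside 9.27% of all genes. Mageh1 (0.18 ± 0.11) and Maged2 (0.16 ± 0.11) followed. Magee1 was at -0.12 and Maged2 at 0.35 in the reduced set. Of 12 Sm and small nuclear ribonucleoprotein genes, relatives of Snrpn, 9 were higher and 3 lower, with a median of 0.12 and 0 called. Snrpd1 (0.42 ± 0.14) alone (8.33%) had an unadjusted p under 0.05, beside 9.27% of all genes. Next came Snrpe (0.38 ± 0.19) and Snrpb (0.18 ± 0.11). Snrpe was at 0.04 in the reduced set.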

How the data were processed

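RNA of sorted midbrain DA neurons was measured in 8 libraries, grouped and numbered by their sample titles. The authors deposited whole-number counts of reads per Ensembl gene, not normalised. Per the submitters' processing notes and the study's methods, bcl2fastq 2.17, Trimmomatic 0.30 and GRCm38.p4 were used; the aligner, the counting program and its strand setting are not given in the sources used here. Reads of overlapping genes and of near-identical copies are therefore uncertain. The authors also deposited tables of their DESeq2 1.10.1 comparisons, with a mean normalised signal, fold changes and p-values, of which only gene symbols were used here. Coordinates, exon lengths and GC content came from the GENCODE annotation of GRCm38, which held 99.1% of identifiers. Start-site sequences were those of RefSeq, found for 8 of the 10 genes.

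For the tests, edgeR 4.0.16 (R 4.3.3) was run on the counts in its quasi-likelihood form, with TMM factors, the filterByExpr filter, no covariates and all genotypes together. Adjustment followed Benjamini and Hochberg over 17988 genes, and 0.05 was the threshold. Fold changes are log2. CPM were scaled by TMM, and correlations used log2 CPM at a prior count of 2. On simulated counts, the fit of Dot1l(fl/fl) against Dot1l(+/+) called 2% of 1.25-fold, 28% of 1.5-fold and 68% of 2-fold changes. Changes were placed only in genes above a floor on mean level, so these shares do not cover genes below it. A count of 0 called therefore does not show that small changes are absent. The 10 genes, the lists and the motifs were chosen with earlier results of these data known. Named were the 10 genes, Dot1l, Ddc, the 3 genes of each list with the smallest p in Dot1l(fl/fl) against Dot1l(+/+), any called gene and the 5 genes most like Dlk1; domain neighbours are named for their position, outside that rule. Alternatives were RLE factors, no filter, DESeq2 1.42.0, the compared genotypes alone, a block for replicate number, a correction (offset) per library for length and GC content of exons by splines (4 degrees of freedom each), the last 2 combined, and each library left out. Where a library had 0 counts, up to 3 remained possible, or 0.0687 to 0.2203 CPM; such limits cover counting error only. The smallest p of an exact permutation test is 0.1 for 3 against 2 or 3 libraries, so none was used. A single result is not reported here.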

Additional observations from a re-analysis of the deposited data

How the results depend on the processing

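With all libraries, edgeR called 0 genes in each of 4 comparisons. They follow here as both alleles floxed against none, a single floxed allele against none, both against a single one, and the trend. With no filter 106, 11, 14 and 172 genes were called, among them Meg3 in Dot1l(fl/+) (edgeR adjusted p = 0.0045) and in the trend (0.0416), so 1 of the 10 each. DESeq2 called 197, 0, 1 and 261, with 1 of the 10, Peg3, in the trend (adjusted p = 0.0425). RLE factors called 0 in all 4, and a fit of the compared genotypes alone called 0 in the 3 pairwise comparisons, the trend not being run in it. The replicate block called 6, 0, 4 and 1, none of the 10, and reversed the Grb10 trend to -0.006. With the block and the length and GC offset together, 17, 0, 9 and 6 were called, none of the 10. Deviations of same-numbered libraries from their genotype means correlated at -0.031 to 0.045, and those of other pairs at -0.051 to 0.045, so no sign that the numbers pair the samples was seen. With only 2 libraries in a group these values are mirror images, and the litter-matched sets of the study's methods could not be tested without a source for the numbering. With the offset, the median of the 10 in Dot1l(fl/fl) against Dot1l(fl/+) was 0.048, and 0.016 with the block added, against 0.094, and Mest in Dot1l(fl/+) turned to -0.016 and -0.001. Snrpn in Dot1l(fl/fl) against Dot1l(fl/+) turned to -0.036 with block and offset. The cause of these moves was not tested.

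Leaving out each library in turn gave 0 to 75, 0, 0 to 7 and 0 to 268 called genes, with 75 and 268 when Dot1l(+/+) 2 was left out. Of the 10, 0 to 1 were called, namely Meg3 when leaving out the library labelled Dot1l(fl/fl) 2 (Dot1l(fl/fl) against Dot1l(+/+) and trend, edgeR adjusted p = 0.0336 and 0.0115) and Peg3 when leaving out Dot1l(+/+) 2 (trend, 0.0463). A group left with 1 library was assumed to vary like the others. Medians of the 10 ran from -0.023 to 0.078, -0.011 to 0.129, -0.036 to 0.094 and -0.032 to 0.023. Signs reversed for Meg3, Cdkn1c, Grb10, Mest and Igf2. In Dot1l(fl/fl) against Dot1l(+/+), Meg3 ran from -0.60 to 0.011, Cdkn1c from -0.10 to 0.058, Grb10 from -0.056 to 0.10 and Mest from -0.33 to 0.023. In Dot1l(fl/+), Cdkn1c ran from -0.02 to 0.13 and Mest from -0.20 to 0.15. In Dot1l(fl/fl) against Dot1l(fl/+), Meg3 ran from -0.21 to 0.39, Cdkn1c from -0.16 to 0.009, Mest from -0.24 to 0.03 and Igf2 from -0.11 to 0.49. In the trend, Cdkn1c ran from -0.044 to 0.032, Grb10 from -0.047 to 0.034 and Mest from -0.16 to 0.013. Depth limits Igf2 most, with 21 to 71 counts a library.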
